A study of Mus musculus with 20 samples.

Results

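The heat shock proteins and their DNAJ co-chaperones were followed through the first weeks of mouse testis development. Members were taken by symbol: every gene of the HSP90, HSP70, HSP110, mitochondrial chaperonin and small heat shock protein series and every DNAJA, DNAJB and DNAJC gene, pseudogenes left out. This gave 70 of the 18193 genes with a probe set of a single symbol, namely 2 HSP90, 13 HSP70, 1 HSP110, 2 mitochondrial chaperonin, 8 small heat shock, 4 DNAJA, 13 DNAJB and 27 DNAJC genes. Where a gene had several such probe sets, the brightest by mean log2 intensity was read, and all 70 were among the 16429 genes tested. Hsp90ab1 and Dnajc19 were not analysed here. RNA of whole mouse testis had been hybridised to 20 single-channel arrays, 2 for each of days 0, 3, 6 and 8, of days 10, 14 and 18, and of days 20, 30 and 35 after birth. The labels name no treatment or genotype, and the groups differ in age alone as far as the labels go. The labels name no strain and do not say whether the 2 arrays of a day came from separate animals or from pools, so p-values measure the spread between these arrays, which may be technical.

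HSP70 proteins hold unfolded stretches of other proteins in a cycle driven by ATP. J-domain proteins, the DNAJ families, hand them their clients and start the cycle, and nucleotide exchange factors such as the HSP110 proteins end it. HSP90 takes over clients that are nearly folded, the mitochondrial chaperonin folds proteins inside a closed chamber, and small heat shock proteins keep unfolded proteins from clumping without ATP. The testis is known for making its own versions of several of these proteins in meiotic and post-meiotic germ cells, among them Hspa2 in spermatocytes and Hspa1l in spermatids.

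Values below are probe set intensities on a linear scale, and differences are of log2(intensity + 7.83), later day minus earlier day. Because probe sets differ in brightness, levels are compared between days of the same gene and not between genes. All arrays share a trimmed mean, and the 5th percentile of intensity was 3.46 to 5.54 on the 8 arrays of days 18 to 35, against 0.882 to 1.23 on the 12 arrays of days 0 to 14. Differences that cross from day 14 to day 18 therefore cannot be told apart from this step between arrays. Germ cell markers moved over the same days: the summed intensity of 9 pachytene spermatocyte markers was 1620 and 1728 on day 8, 9153 and 8113 on day 14, 27684 and 27490 on day 20 and 33498 and 32570 on day 35. That of 9 round spermatid markers was 234 and 242 on day 14, 1831 and 1755 on day 20 and 14176 and 13688 on day 35, and that of 10 elongating spermatid markers was 975 and 895 on day 20 and 68217 and 61793 on day 35. Sums for 11 Sertoli cell markers were 11470 and 10838 on day 35, against 19954 and 20504 on day 0, and for 6 interstitial fibroblast markers 1456 and 1247 on day 35, against 22181 and 23349 on day 0. In RNA of a whole organ, on arrays that share a trimmed mean, intensities are relative to all RNA on the array. Fewer cells of a type, less RNA per cell and a smaller share beside other cell types cannot be told apart. The part of these shifts in the results below was not tested. The title and the source name of 1 array disagree, day 18 replicate 2 against day 0, and its title was followed.

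Over the time course 50 of the 70 members changed (71.4%, beside 77.6% of all genes tested), meaning a moderated F test at an adjusted p under 0.05 and day means that spanned at least 2-fold. The time course test called 19 members within days 0 to 14 alone (beside 24.4% of all genes) and 22 within days 18 to 35 alone (beside 28.4%). At least 4-fold ranges were found for 27 members (38.6%, beside 40.9% of all genes). At least 16-fold ranges were found for 10 members (14.3%, beside 8.12% of all genes), and these were Hspb9, Dnajc5b, Dnajb13, Hspa1l, Dnajb7, Dnajb8, Dnajb3, Hspa4l, Dnajc5g and Hspa2. Every array of days 18 to 35 lay above every array of days 0 to 14 for 16 members (22.9%, beside 16.4% of all genes) and below them for 13 (18.6%, beside 17.9%). Without the array titled day 18 replicate 2 these counts were 49 over the time course, 16 above (beside 17.5% of all genes) and 14 below (beside 19.3%). Of the 50, 18 had their highest day mean on days 0 to 10, 11 on days 14 to 20 and 21 on day 30 or 35. These shares of 36%, 22% and 42% stood beside 44.3%, 20.4% and 35.3% of all genes that changed.

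**Figure D1:**
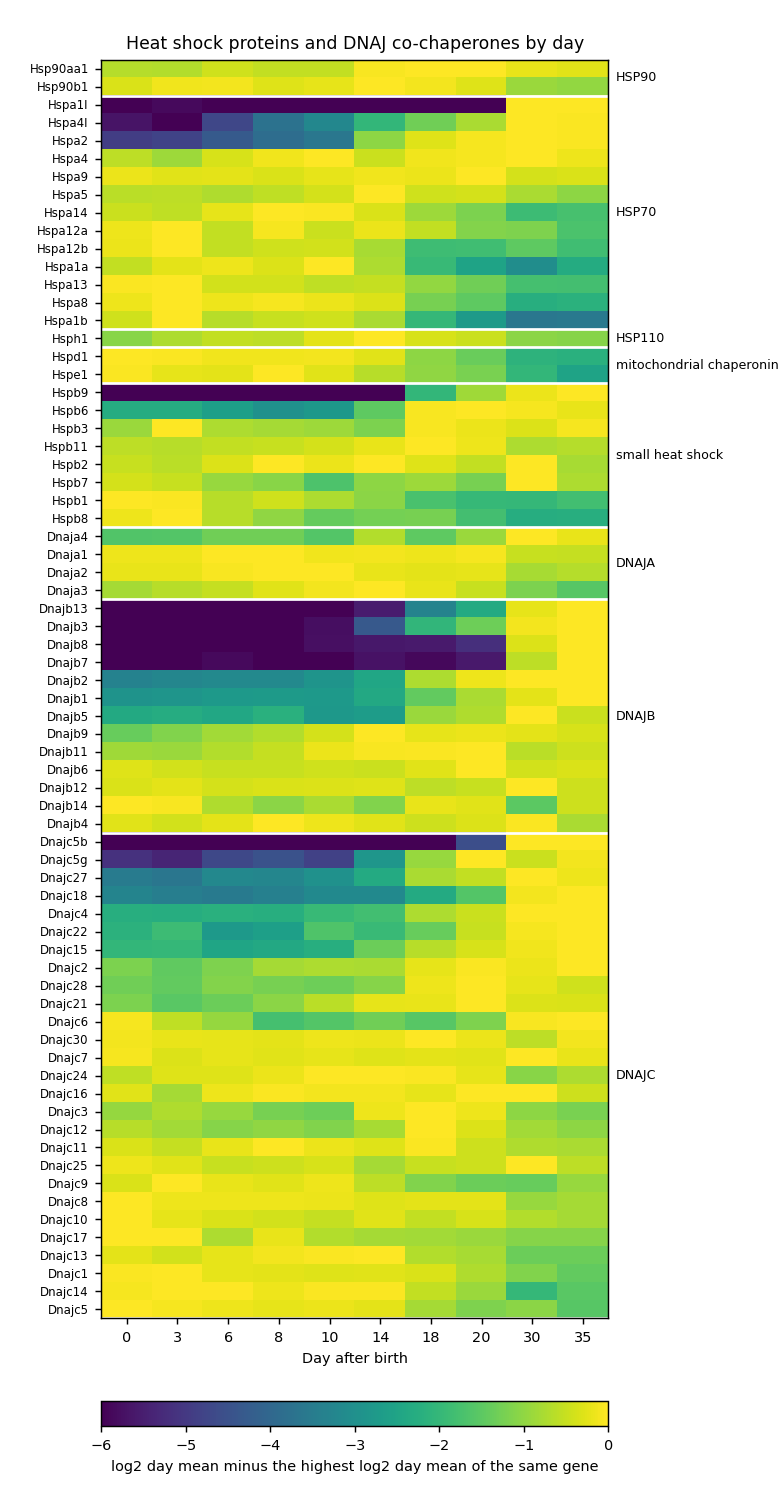
Log2 day mean of each of the 70 members minus the highest log2 day mean of the same gene, days after birth from left to right, members grouped by family and sorted by their difference on day 35 against day 0. The darkest cells, at or near 6 below the highest day, fill the early days of Hspa1l, Hspb9, Dnajb13, Dnajb3, Dnajb8, Dnajb7 and Dnajc5b, while Hspa1b, Hspa8, Hspd1 and Hspe1 darken towards day 35.

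Few members moved by day 8. On day 8 against day 0, 2 were higher and 2 lower (5.71%, beside 6.06% of all genes tested, of which 3.29% higher and 2.77% lower), Hspa4l and Hspa2 upwards, Dnajc6 and Dnajb14 downwards. With quantile normalization or a common median the split was 2 higher and 1 lower. Over these days 7 of 8 spermatogonial markers were higher, with a summed intensity of 2650 and 2671 on day 8, against 606 and 553 on day 0. Of 7 Leydig cell markers 5 were lower, with a sum of 3975 and 4394 on day 8, against 12123 and 12249 on day 0, and the part of either in the results was not tested. On day 14 against day 8, when spermatocytes enter the long prophase of meiosis, 11 were higher and none was lower (15.7%, beside 7.97% of all genes called in either direction). Of all genes 5.48% were higher and 2.5% lower. These were Hspa2, Hspb9, Dnajb3, Dnajb13, Hspa4l, Dnajc5g, Hspb6, Dnajb7, Dnajb8, Dnajc3 and Dnajc15. Beside the 0 members called lower by limma, 10 were lower at an unadjusted p under 0.05, 7 were lower when the size limit was dropped, and Hspa1l was called lower with a common median or the smaller constant.

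On day 20 against day 14, 16 members were higher and 5 lower (30%, beside 29.4% of all genes tested, of which 18.2% higher and 11.2% lower). With arrays at a common median the split was 14 higher and 10 lower. The 5 that fell were Hspa1b, Hspa1a, Hspa8, Hspd1 and Hspa12b. On day 35 against day 20, 8 were higher and 3 lower (15.7%, beside 15.8% of all genes, of which 8.5% higher and 7.27% lower), and 9 higher and 1 lower with quantile normalization. Over the whole span, day 35 against day 0, 22 were higher and 16 lower (54.3%, beside 54.9% of all genes, of which 27.3% higher and 27.6% lower). In the 5 comparisons all called members had later and earlier arrays that did not overlap. They numbered from 4 on day 8 against day 0 to 38 on day 35 against day 0. With so few arrays per day, a call by adjusted p and size all but requires this. For called members, here and below, a lack of overlap is therefore a description and no separate evidence. The share of all genes without overlap was not counted.

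**Figure D2:**
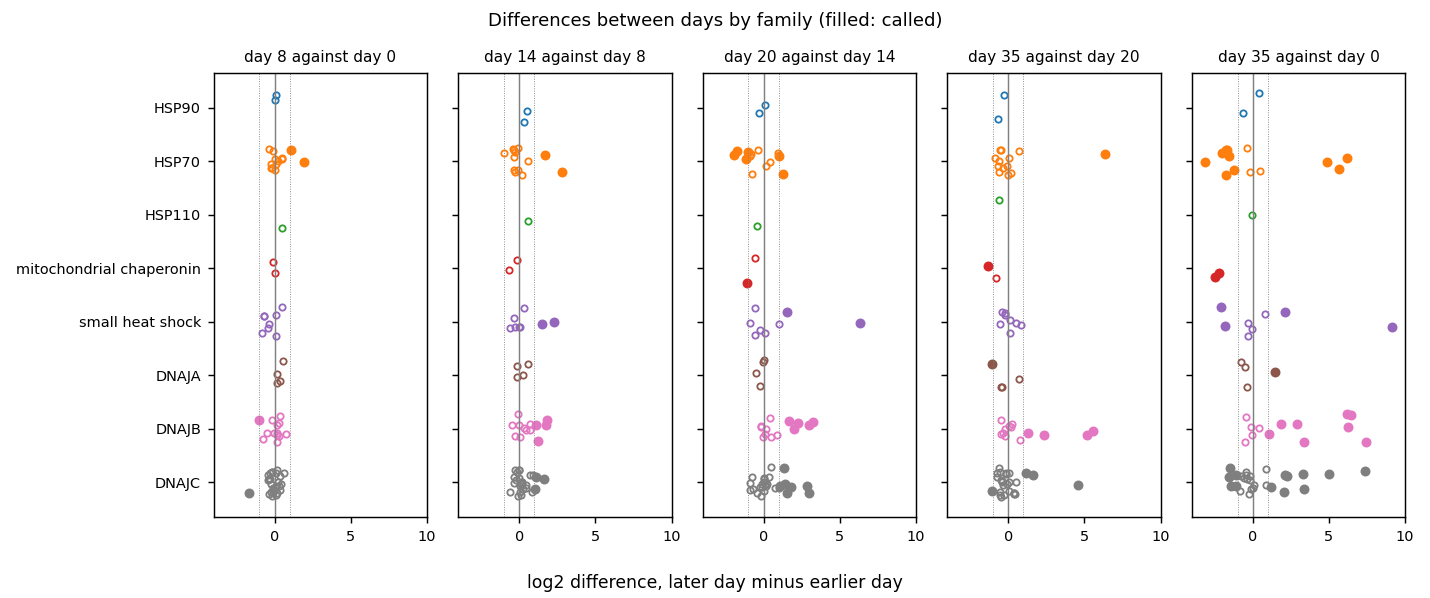
Log2 difference, later day minus earlier day, of each member in the 5 comparisons, by family, with filled points for called members, open points for the others and dotted lines at 2-fold. On day 35 against day 0 the DNAJB points include 8 called upwards and none downwards, whereas the HSP70 points include 3 upwards and 7 downwards.

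By family, calls on day 35 against day 0 are read beside 27.3% of all genes higher and 27.6% lower, and no test compared the families. Of 13 DNAJB genes, 8 were higher (61.5%) and none lower, with a median difference of 1.87. Of 13 HSP70 genes, 3 were higher (23.1%) and 7 lower (53.8%), with a median of -1.26. Both mitochondrial chaperonin genes were lower. The 27 DNAJC genes, with 8 higher (29.6%) and 5 lower (18.5%), and the 8 small heat shock genes, with 2 higher and 2 lower (25% each), lay near the shares of all genes. Of the 4 DNAJA genes 1 was higher. Neither HSP90 gene and not the HSP110 gene, Hsph1, passed, and the median of all genes tested was -0.03. Families follow the gene symbols, so that Hspa4l, an HSP110-type exchange factor, is counted with the HSP70 genes.

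The rises among HSP70 genes were those of Hspa4l, Hspa2 and Hspa1l. Hspa4l, an HSP110-type exchange factor made mainly in testis, gave 425 and 418 on day 8, against 101 and 110 on day 0, and was higher by 1.92 (SE 0.11, adjusted p = 2.87e-10). It was higher again on day 14, at 1497 and 1318, by 1.72 over day 8 (SE 0.11, adjusted p = 4.52e-10). Its arrays of days 14, 8 and 0 form 3 groups that do not overlap. On day 20 it gave 3412 and 3439, higher by 1.28 than on day 14 (SE 0.11, adjusted p = 1.02e-08), and on day 35 5846 and 5488, 50.2-fold above day 0 (log2 5.65, SE 0.11, adjusted p = 1.1e-18). No other member had a called rise in each of the first 3 comparisons.

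Hspa2, the HSP70 of meiotic prophase whose loss in mice arrests spermatocytes, had its largest difference at day 14. It gave 1190 and 954 on day 14, against 153 and 134 on day 8, a 7.12-fold rise (log2 2.83, SE 0.13, adjusted p = 5.16e-12). On day 8 it was already higher than on day 0, where it gave 67.1 and 62.3, by 1.06 (SE 0.13, adjusted p = 1e-05), a call lost without day 8 replicate 1 (0.97). From day 18 on its arrays lay between 1756 and 2383. The difference of 0.94 on day 20 against day 14 missed the 2-fold limit and passed it without day 14 replicate 1 (log2 1.10).

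Hspa1l, which encodes the spermatid HSP70, stayed near the bottom of the scale until day 20 and was high on day 30. It gave 16.1 and 7.86 on day 20, 1508 and 1604 on day 30 and 1545 and 1577 on day 35. The difference on day 35 against day 20 was 6.34 (SE 0.30, adjusted p = 3.64e-12), with no overlap. A smaller call on day 20 against day 14 (log2 1.03, adjusted p = 0.00641) rested on day 14 arrays at 1.67 ± 0.391 (SD, n = 2) and was lost without day 14 replicate 1 (0.99) or day 20 replicate 1 (0.72), and at a floor at the pooled median (0.00).

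Hspa1l lies head to head with the stress-inducible Hspa1a: the RefSeq gene starts of the 2 genes on chromosome 17 are 547 bases apart. On day 35 against day 0 Hspa1a was lower (log2 -1.76) and Hspa1l higher (6.17), but the changes fell on different days. Hspa1a differed by -1.77 on day 20 against day 14 and by 0.21 on day 35 against day 20, where Hspa1l rose. Their promoter windows (RefSeq, GRCm38.p6, 250 bases before to 50 after the gene start) are printed because these neighbours differed in opposite directions between day 0 and day 35. Capitals mark GAANNTTC, the palindromic core of the heat shock element bound by heat shock factors, N standing for any base. The window of Hspa1a is chr17:34972107-34972406 on the minus strand and that of Hspa1l is chr17:34972453-34972752 on the plus strand.
Hspa1a: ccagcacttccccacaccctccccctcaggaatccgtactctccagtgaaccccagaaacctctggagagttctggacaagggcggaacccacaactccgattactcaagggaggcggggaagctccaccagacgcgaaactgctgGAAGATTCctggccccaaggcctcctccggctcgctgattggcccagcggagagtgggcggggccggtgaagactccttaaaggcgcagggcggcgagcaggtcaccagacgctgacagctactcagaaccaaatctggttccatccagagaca
Hspa1l: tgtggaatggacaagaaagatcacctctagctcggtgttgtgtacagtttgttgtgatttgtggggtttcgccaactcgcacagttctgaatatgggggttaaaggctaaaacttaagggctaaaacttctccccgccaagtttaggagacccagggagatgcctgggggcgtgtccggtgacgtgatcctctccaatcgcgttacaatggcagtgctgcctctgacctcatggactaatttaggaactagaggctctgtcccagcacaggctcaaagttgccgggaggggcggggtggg
In Hspa1a the match begins 104 bases before the gene start. No match is present in the window of Hspa1l, which says only that these letters do not occur there.

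Hspa2 and Hspb9, which had the largest rises on day 14 against day 8, have windows without a match as well. That of Hspa2 is chr12:76404120-76404419 on the plus strand and that of Hspb9 is chr11:100713679-100713978 on the plus strand.
Hspa2: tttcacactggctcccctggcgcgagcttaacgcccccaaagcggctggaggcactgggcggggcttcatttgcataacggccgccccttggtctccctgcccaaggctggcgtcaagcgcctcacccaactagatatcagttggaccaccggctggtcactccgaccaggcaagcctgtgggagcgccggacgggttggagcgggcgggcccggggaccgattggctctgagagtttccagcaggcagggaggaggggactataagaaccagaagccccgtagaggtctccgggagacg
Hspb9: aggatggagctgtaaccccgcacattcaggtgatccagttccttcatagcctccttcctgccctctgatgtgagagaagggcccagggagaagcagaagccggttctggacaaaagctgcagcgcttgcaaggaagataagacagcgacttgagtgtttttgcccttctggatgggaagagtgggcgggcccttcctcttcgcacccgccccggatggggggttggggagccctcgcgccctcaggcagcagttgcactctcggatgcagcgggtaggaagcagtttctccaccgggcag

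**Figure D3:**
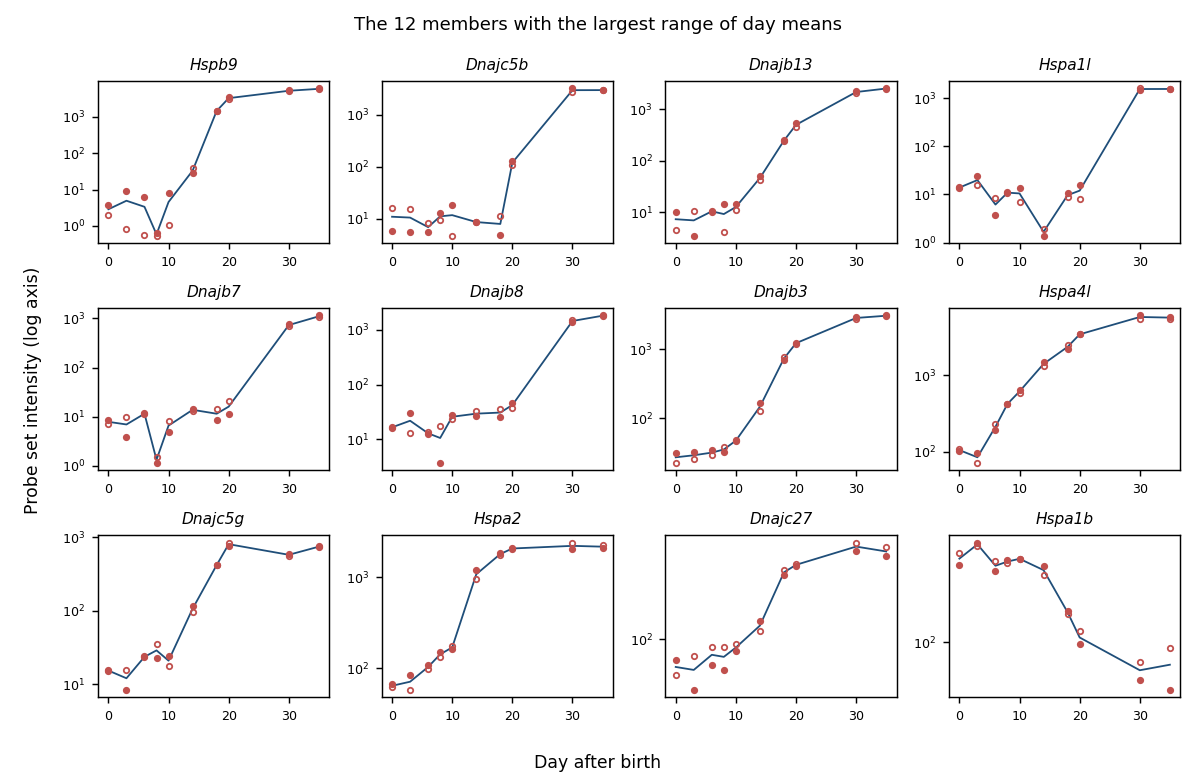
Intensity by day after birth, on a log axis, of the 12 members with the largest range of day means, with filled points for replicate 1, open points for replicate 2 and the line through the day means. Hspa4l leaves its day 0 level by day 8, Hspa2 climbs to 1190 and 954 on day 14, Hspb9 to 1455 and 1458 on day 18, and Hspa1l, Dnajb7 and Dnajb8 stay low through day 20. Hspa1b is the only one of the 12 that runs downwards.

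The constitutive and stress-inducible HSP70 genes of the cytosol fell. Hspa8, the constitutive HSP70 that most cells use, gave 2752 and 2556 on day 20, against 6377 and 5698 on day 14, and was lower by 2.27-fold (log2 -1.18, SE 0.08, adjusted p = 5.54e-10). On day 35 it gave 1806 and 1540, against 7285 and 6177 on day 0, 4.01-fold lower (log2 -2.00, SE 0.08, adjusted p = 2.73e-14). All 8 arrays of days 18 to 35 lay below all 12 earlier ones, and within days 0 to 14 alone its day means spanned only 0.32.

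Hspa1b, which is induced by heat and other stress, gave 95.6 and 125 on day 20, against 491 and 407 on day 14 (log2 -1.96, SE 0.24, adjusted p = 9.14e-07). On day 35 it gave 36.9 and 87.7, against 502 and 639 on day 0, 8.79-fold lower (log2 -3.14, SE 0.24, adjusted p = 3.25e-10), the largest fall among the members. Its difference of -0.84 on day 35 against day 20 was under the 2-fold limit, and passed it without day 20 replicate 1 (-1.02) or day 35 replicate 2 (-1.39). Hspa1a gave 46.2 and 41.6 on day 20, against 153 and 185 on day 14 (log2 -1.77, SE 0.33, adjusted p = 0.000122). The coding sequences of Hspa1a and Hspa1b are near-identical copies, so which of the pair a probe set reads is uncertain. Of the immediate early genes, whose RNA responds to handling and stress, 7 of 8 were lower on day 20 than on day 14. Their summed intensity was 547 and 522 on day 20, against 1628 and 1376 on day 14. The days of the drop differed: that sum was 1335 and 1134 on day 18, when Hspa1b already gave 193 and 179 and Hspa1a 63.1 and 72.5. Their part in the result was not tested.

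The other HSP70 genes that were lower on day 35 than on day 0 are Hspa13, a microsomal relative, Hspa14, which works on the ribosome, and the distant relatives Hspa12a and Hspa12b. Hspa13 gave 150 and 206 on day 35, against 642 and 596 on day 0 (log2 -1.77, adjusted p = 1.02e-10), and Hspa14 had its highest day mean, 596 ± 34.3 (SD, n = 2), on day 8. Hspa12b was also lower on day 20 against day 14 (log2 -1.06, adjusted p = 0.0116), at 6.43 ± 0.0491 against 22.1 ± 3.13 (SD, n = 2 each), a call lost without day 14 replicate 2 (-0.96). At these low intensities it was also lost with the 40th-percentile constant (-0.64) and at the median floor (0.00). Hspa4, the broadly expressed relative of Hspa4l, had its highest day mean, 2020 ± 101, on day 10 and its lowest, 1087 ± 54.2, on day 3 (SD, n = 2 each). This range of 0.89 passed the limit with quantile normalization (1.02). On day 35 against day 0 the analysed probe set of Hspa4 differed by 0.45. Its others differed by -0.27, -1.56 and -1.66, and those at -1.56 and -1.66 were called.

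The mitochondrial chaperonin pair fell together. Hspd1, the chamber subunit, gave 758 and 861 on day 20, against 1759 and 1714 on day 14, and fell by 1.10 on the log2 scale (SE 0.08, adjusted p = 1.36e-09). On day 35 it gave 445 and 469, against 2081 and 2139 on day 0, 4.55-fold lower (adjusted p = 6.4e-15). Hspe1, the lid of the chamber, gave 621 and 376 on day 35, against 1198 and 1206 on day 20 (log2 -1.30, SE 0.14, adjusted p = 2.19e-07), and against 2814 and 2622 on day 0 (log2 -2.47, SE 0.14, adjusted p = 2.54e-12). The groups did not overlap in any of these comparisons, but without day 35 replicate 2 the fall of Hspe1 after day 20 was -0.95. On its analysed probe set the mitochondrial HSP70 Hspa9 did not follow: it gave 767 and 765 on day 35 and 873 and 847 on day 0. Its range of 0.38 was among the 4 smallest of the members. The other probe sets of Hspa9 differed by -0.05, -0.78, -0.81 and -1.57 on day 35 against day 0, and that at -1.57 was called (adjusted p = 0.000732).

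Hspe1 and Hspd1 are neighbours on chromosome 1 whose starts lie 95 or 216 bases apart, depending on which of 2 RefSeq starts of Hspd1 is taken. The window of Hspe1, chr1:55087898-55088197 on the plus strand, is shown because these genes lie so close and fell together. It holds GAANNTTC, in capitals, 84 bases before the start of Hspe1. There the core followed, after any 2 bases, by a further GAA matches once on each strand, and the 2 matches overlap.
Hspe1: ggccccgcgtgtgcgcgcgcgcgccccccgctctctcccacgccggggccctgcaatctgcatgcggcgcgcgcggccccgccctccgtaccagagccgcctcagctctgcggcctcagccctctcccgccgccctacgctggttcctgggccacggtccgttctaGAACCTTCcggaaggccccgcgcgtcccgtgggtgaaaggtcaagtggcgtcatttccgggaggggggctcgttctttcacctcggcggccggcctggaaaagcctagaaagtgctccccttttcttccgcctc

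**Figure D4:**
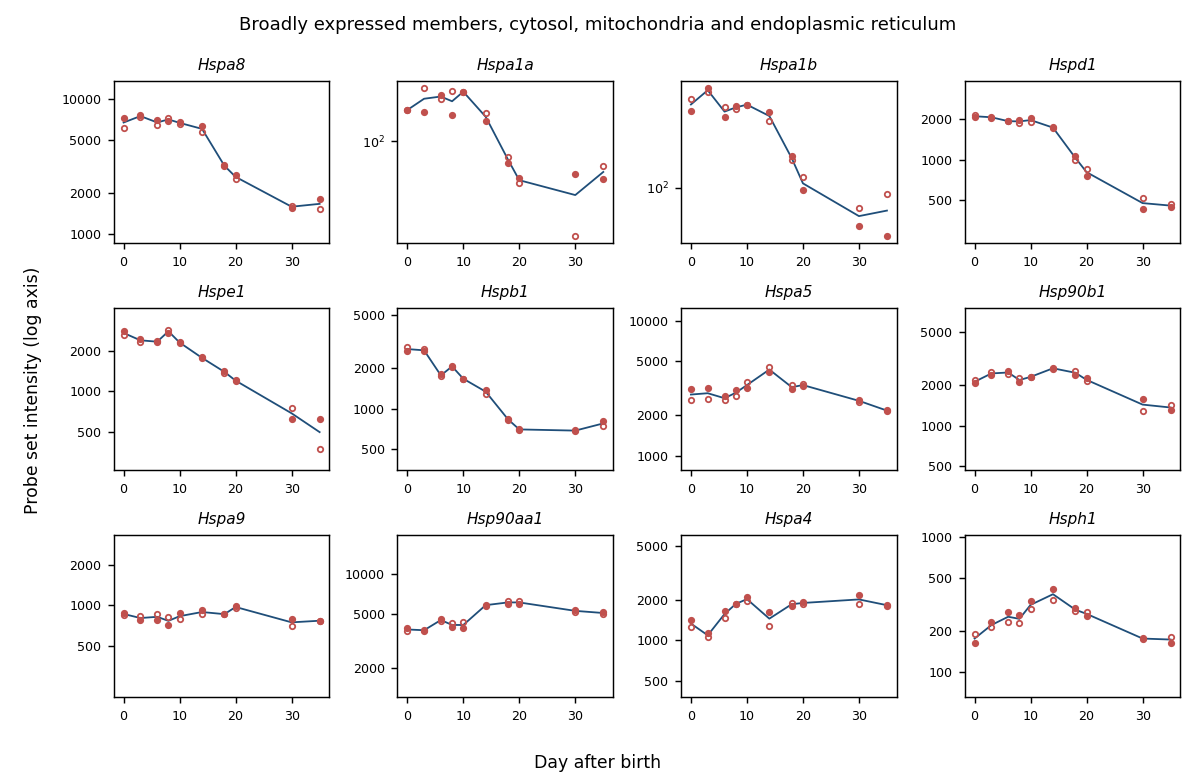
Intensity by day after birth, on log axes, of 12 broadly expressed members, with filled points for replicate 1, open points for replicate 2 and the line through the day means. Hspa8, Hspa1a, Hspa1b, Hspd1, Hspe1 and Hspb1 are lower on all arrays of days 18 to 35 than on all earlier arrays. The analysed probe sets of Hspa9, Hsp90aa1 and Hspa4 remain within 2-fold.

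Among chaperones of the endoplasmic reticulum, called differences included those of Hspa13 above and of the co-chaperones Dnajb9, Dnajc3, Dnajc1 and Dnajb14. Hspa5, the HSP70 of that compartment, was lowest on day 35, at 2167 and 2149, and highest on day 14, at 4185 and 4522. Its range of 1.01 passed the limit (adjusted p = 4.9e-07) and missed it without day 14 replicate 2 (0.95). Hsp90b1, the HSP90 of the same compartment, had the same days as its lowest and highest, 1305 and 1432 on day 35 and 2708 and 2650 on day 14, with a range of 0.97 that passed without day 30 replicate 1 (1.04) or day 35 replicate 2 (1.03), and with either scaling alternative (1.27 and 1.32).

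Among the J-domain partners of Hspa5, Dnajb9 was higher on day 35 than on day 0, at 1022 and 1078 against 487 and 522 (log2 1.05, SE 0.08, adjusted p = 2.97e-10), and highest on day 14. Dnajc3, an inhibitor of eIF2 alpha kinases, was higher on day 14 than on day 8, at 372 and 378 against 190 and 156 (log2 1.09, adjusted p = 7.99e-06). It then fell by 1.06 on day 35 against day 20 (adjusted p = 4.4e-06). That call was lost without day 35 replicate 2 (-0.95), with quantile normalization (-0.86) and with the mean of all probe sets (-0.70). Of the other probe sets of Dnajc3, that at -1.15 was called over those days and those at -0.29, -0.47 and -0.51 were not. Dnajc1 was lower on day 35 than on day 0 (log2 -1.40, adjusted p = 1.26e-08). Dnajb11 and Dnajc10 of the same compartment had ranges of 0.91 and 0.81, under the limit, and no called difference on the analysed probe sets. Both other probe sets of Dnajc10 were called lower on day 35 than on day 0 (log2 -1.44 and -1.23, adjusted p = 1.37e-09 and 8.4e-05).

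The cytosolic HSP90 gene Hsp90aa1, the inducible form, gave 5782 and 5902 on day 14, against 4034 and 4292 on day 8. That log2 difference of 0.49 was not called, and the range over all days, 0.69, stayed under the limit (adjusted p = 6.2e-10 for the F test). The range passed with quantile normalization (1.08) and with the mean of all probe sets (1.08). Hsph1, the HSP110 exchange factor induced by heat, was lowest on day 35, at 164 and 183, and highest on day 14, at 411 and 345. Its range was 1.09 (adjusted p = 7.4e-07), and 0.96 without day 14 replicate 1. Its other probe set had another course, at 276 and 294 on day 35, against 80.3 and 94.7 on day 0 (log2 1.62, adjusted p = 2.76e-09), where the analysed one differed by -0.03.

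Small heat shock proteins held both the largest rise of all members and 2 falls. Hspb9, a testis small heat shock protein, gave 27.9 and 38.2 on day 14, against 0.630 and 0.536 on day 8 (log2 2.27, SE 0.29, adjusted p = 5.04e-06), 1455 and 1458 on day 18, and 3487 and 3072 on day 20. The difference on day 20 against day 14 was 6.34 (SE 0.29, adjusted p = 1.7e-12). On day 35 it gave 6087 and 5748, against 3.77 and 1.96 on day 0. That log2 difference of 9.12 (SE 0.29, adjusted p = 4.67e-16) was 7.42 with a floor at the pooled median and 10.41 with the smaller constant, since the early arrays are at the bottom of the scale, and the difference on day 14 against day 8 was 0.07 with that floor.

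Hspb6, a small heat shock protein best known from muscle, gave 129 and 140 on day 14, against 44.5 and 42.3 on day 8 (log2 1.47, SE 0.14, adjusted p = 7.64e-08), and 406 and 383 on day 20, 2.83-fold above day 14 (adjusted p = 1.76e-08). Hspb1, an actin-protecting small heat shock protein, gave 807 and 745 on day 35, against 2681 and 2857 on day 0 (log2 -1.82, SE 0.06, adjusted p = 2.5e-15). Part of that difference lay early: the arrays of day 14, 1382 and 1290, were all below those of day 0, and within days 0 to 14 alone its day means spanned 1.05 (adjusted p = 1.03e-08). Its difference of -0.92 on day 20 against day 14 passed the limit with a common median (-1.14) or quantile normalization (-1.05). Hspb8, a partner of Bag3 in selective autophagy, gave 17.2 and 13.3 on day 35, against 86.7 and 91.3 on day 0 (log2 -2.07, SE 0.42, adjusted p = 0.000193), and -1.36 with the floor. Its other probe sets differed over these days by -2.74, which was called, and by -0.07, which was not. Hspb7 passed the time course test with a range of 1.67 (adjusted p = 0.03), whereas Hspb11, a protein of ciliary transport, Hspb2 and Hspb3 did not pass.

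Of the DNAJB co-chaperones, 8 rose between day 0 and day 35. Dnajb3, a sperm J-domain protein, gave 166 and 127 on day 14, against 32.4 and 38.2 on day 8 (log2 1.84, SE 0.15, adjusted p = 1.36e-08). It then gave 1238 and 1201 on day 20 (log2 3.00 over day 14, SE 0.15, adjusted p = 4.93e-12) and 3070 and 3016 on day 35 (log2 1.31 over day 20, SE 0.15, adjusted p = 5.51e-07). Dnajb13, a component of the radial spokes of the sperm tail, gave 532 and 461 on day 20, against 46.2 ± 5.33 on day 14 (SD, n = 2, log2 3.22, SE 0.27, adjusted p = 5e-09). On day 35 it gave 2536 and 2506, against 10.1 and 4.46 on day 0 (log2 7.41, SE 0.27, adjusted p = 3.09e-15). At these low early levels the size depends on the constant: that difference was 6.19 with a floor at the pooled median and 8.23 with the smaller constant, and the call of Dnajb13 on day 14 against day 8 was lost at the floor (0.41). Both genes were higher in each of the 3 comparisons after day 8, and no arrays of the compared days overlapped.

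Dnajb7 and Dnajb8, which are made mainly in testis, were low until day 20. Dnajb8, known to keep polyglutamine proteins from aggregating, gave 1801 and 1840 on day 35, against 46.8 and 37.9 on day 20 (log2 5.19, SE 0.32, adjusted p = 1.44e-10). Dnajb7 gave 1153 and 1064 on day 35, against 11.3 and 20.5 on day 20 (log2 5.58, SE 0.31, adjusted p = 3.3e-11). Both had called rises on day 14 against day 8 that lay within the lowest intensities, 26.4 and 32.7 against 3.74 and 17.4 for Dnajb8 and 14.5 and 12.8 against 1.14 and 1.49 for Dnajb7.

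Dnajb1, Dnajb2 and Dnajb5 are broadly expressed J-domain proteins that were higher after day 14. Dnajb1, the main cytosolic partner of stress-induced HSP70, gave 1866 and 1859 on day 20, against 656 and 545 on day 14 (log2 1.63, SE 0.09, adjusted p = 2.08e-11). It reached 3127 and 3161 on day 35, against 437 and 385 on day 0 (log2 2.92, SE 0.09, adjusted p = 3.65e-16). Dnajb2, which steers ubiquitinated clients to the proteasome, gave 1044 and 880 on day 20, against 198 and 185 on day 14 (log2 2.28, SE 0.13, adjusted p = 5.19e-11). Dnajb5 gave 134 and 141 on day 20, against 35.3 and 23.9 on day 14 (log2 1.97, adjusted p = 2.89e-06). Dnajb14, of the endoplasmic reticulum membrane, was lower on day 8 than on day 0, at 33.4 and 32.7 against 80.9 and 72.2 (log2 -1.04, adjusted p = 0.0376), and its call was lost without any 1 of the 4 arrays of those days (-0.97 to -1.12).

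The DNAJC family held the 3 cysteine string proteins, and they divided by paralog. Dnajc5, the form of nerve endings and other secretory cells, gave 152 and 186 on day 35, against 516 and 502 on day 0 (log2 -1.55, SE 0.18, adjusted p = 2.06e-07). Dnajc5g, a testis paralog, gave 118 and 95.8 on day 14, against 22.6 and 35.4 on day 8 (log2 1.66, SE 0.21, adjusted p = 3.94e-06), and 766 and 852 on day 20 (log2 2.83 over day 14, SE 0.21, adjusted p = 8.49e-10). Dnajc5b, the other testis paralog, gave 130 and 109 on day 20, against 8.75 and 8.46 on day 14 (log2 2.95, SE 0.35, adjusted p = 6.87e-07). It then gave 2995 and 2992 on day 35, 23.6-fold above day 20 (log2 4.56, SE 0.35, adjusted p = 3.04e-09). Dnajc5g thus had its highest day mean on day 20, 809 ± 61.1, and Dnajc5b on day 35, 2993 ± 2.35 (SD, n = 2 each).

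Of the other DNAJC genes, Dnajc15, which sits in the inner mitochondrial membrane and slows respiration, gave 1378 and 1641 on day 14, against 698 and 776 on day 8 (log2 1.02, SE 0.09, adjusted p = 5.11e-08), and 4025 and 3701 on day 35. Dnajc27, a Rab-like GTPase with a J domain, gave 477 and 493 on day 20, against 149 and 120 on day 14 (log2 1.80, SE 0.25, adjusted p = 4.9e-06). Dnajc18 was higher on day 20 against day 14 (log2 1.56) and again on day 35 against day 20, at 1224 and 1190 against 413 and 375 (log2 1.60, SE 0.12, adjusted p = 3.62e-09). Dnajc4, Dnajc22 and Dnajc28 were higher on day 20 than on day 14 by 1.34, 1.41 and 1.08. Dnajc22 was read near the bottom of the scale, at 36.2 and 30.1 on day 20, against 6.92 and 8.17 on day 14. The other probe sets of Dnajc22 and Dnajc28 differed by 0.77 and 0.48 and were not called. Dnajc2, the ribosome-bound partner of Hspa14, was higher on day 35 than on day 0 by 1.17 (adjusted p = 3.77e-09). Hspa14 itself was lower over that span (log2 -1.26, adjusted p = 4.95e-10), so that the 2 partners differed in direction.

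Dnajc13, of endosomes, Dnajc14 and Dnajc17 were lower on day 35 than on day 0, by log2 differences of -1.10, -1.46 and -1.08. Dnajc6, the clathrin-uncoating factor auxilin, was read near the bottom of the scale, at 4.99 and 1.44 on day 8 against 31.0 and 24.2 on day 0 (log2 -1.69, adjusted p = 0.00868). That call was lost without day 0 replicate 1 or day 8 replicate 2, at log2 -1.55 and -1.46, and was -0.20 with the mean of all probe sets, and its rise on day 35 against day 20 had an adjusted p of 0.0397. Dnajc21, of ribosome assembly, Dnajc24, of diphthamide synthesis, Dnajc9, a histone chaperone, and Dnajc12 passed the time course test with ranges of 1.54, 1.06, 1.39 and 1.13, and none of the 5 comparisons called them. Dnajc7, which bridges HSP70 and HSP90, had the smallest range of all members, 0.32, with every array between 596 and 829.

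Of the DNAJA genes, general partners of HSP70, only Dnaja4 was called on day 35 against day 0 on the analysed probe set. Dnaja1 gave 1717 and 1645 on day 35 and 2213 and 2176 on day 0, and Dnaja2 ranged from 1525 ± 176 on day 30 to 2614 ± 1.97 on day 10 (SD, n = 2). Another probe set of Dnaja2 was called lower, at 44.8 and 55.9 on day 35, against 332 and 418 on day 0 (log2 -2.72, adjusted p = 1.2e-09). Its remaining probe sets differed by 0.14 and -0.42 over that span and were not called. Dnaja3, the mitochondrial form, was highest on day 14, at 326 and 340, and lower on day 35 than on day 20, at 115 and 99.7 against 251 and 214 (log2 -1.06, SE 0.13, adjusted p = 1.7e-06). That call was lost without day 20 replicate 1 (-0.95) or day 35 replicate 2 (-0.97) and with quantile normalization (-0.86). The direction turned with the mean of all probe sets (0.14), both other probe sets differing by 0.57 and 0.93 over those days. Dnaja4 was higher on day 35 than on day 0, at 158 and 153 against 62.4 and 43.9 (log2 1.44, SE 0.22, adjusted p = 7.55e-06). Altogether 20 members did not pass the time course test, 15 of them for their range alone and 5, Dnajb12, Dnajc25, Dnajc7, Hspb2 and Hspb3, with an adjusted p of 0.05 or more.

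The 22 members that were higher on day 35 than on day 0 can be put in order by the first day on which the day mean reached 50% of the highest day mean, a description with no test. Dnajb9 reached it on day 6, Dnajc2 on day 8 and Dnaja4 on day 14. Dnaja4 was below it again on day 18, with day means of 109 on day 14, 59 on day 18, 92.4 on day 20 and 181 on day 30. On day 18 the 50% level was first reached by 8 members, Dnajb2, Dnajb5, Dnajc15, Dnajc27, Dnajc4, Dnajc5g, Hspa2 and Hspb6, and on day 20 by 4, Dnajb1, Dnajc22, Hspa4l and Hspb9. The last 7, Dnajb13, Dnajb3, Dnajb7, Dnajb8, Dnajc18, Dnajc5b and Hspa1l, reached it on day 30. Of the 16 members that were lower, 12 had their highest day mean on day 0 or 3, Hspa14 and Hspe1 on day 8, Hspa1a on day 10 and Dnajc13 on day 14.

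Further probe sets of the same genes gave other courses for some members. Of 45 members with several probe sets, those called in the 5 comparisons had 92 results from other probe sets, of which 75 had the same sign, 45 of these called, and 17 the opposite sign, 1 of these called. Dnajb6, which blocks protein aggregation, was flat on its analysed probe set, at 1383 and 1217 on day 35 and 1357 and 1297 on day 0. Another of its probe sets gave 1496 and 1502 on day 35, against 38.9 and 45.9 on day 0 (log2 4.91, SE 0.11, adjusted p = 1.43e-17 over all single-symbol probe sets), and a pair of others were higher by 2.14 and 2.50. Dnaja4 had a probe set at 908 and 949 on day 35, against 32.5 and 18.9 on day 20 (log2 4.83, adjusted p = 3.51e-12), and Dnajb4 one at 1354 and 1374 on day 35, against 152 and 157 on day 20 (log2 3.08, adjusted p = 7.76e-10). Their analysed probe sets differed by 0.71 and -0.45 over those days and were not called.

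The other probe sets of Dnaja1 were both lower on day 35 than on day 0, by log2 differences of -1.82 and -1.83, where the analysed one gave -0.38. For Hspa4l all 4 others were higher on day 35 than on day 0, by 1.29 to 3.88, but each was below its day 20 level on day 35, for example 710 and 746 against 1226 and 1131. For Dnajb1 the other probe set gave 1083 and 1031 on day 35, against 691 and 648 on day 0 (log2 0.65), and was highest on day 20 at 1564 and 1479. Another probe set of Dnajc18 gave a log2 difference of -0.92 on day 35 against day 0, under the size limit. Of the 2 others of Dnajc17, 1 was lower like the analysed one (log2 -1.68), and the other was called higher (log2 1.13) at the bottom of the scale, at 14.3 and 8.44 on day 35, against 0.739 and 0.909 on day 0. With the mean of all probe sets the difference of Hspa4l was 0.49 on day 20 against day 14 and 2.96 on day 35 against day 0, that of Dnajb1 1.78 on day 35 against day 0, and that of Dnajc18 0.68 on day 35 against day 20. A 3' array reads whichever transcript ends a probe set covers, and the transcripts behind these differences were not identified.

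**Figure D5:**
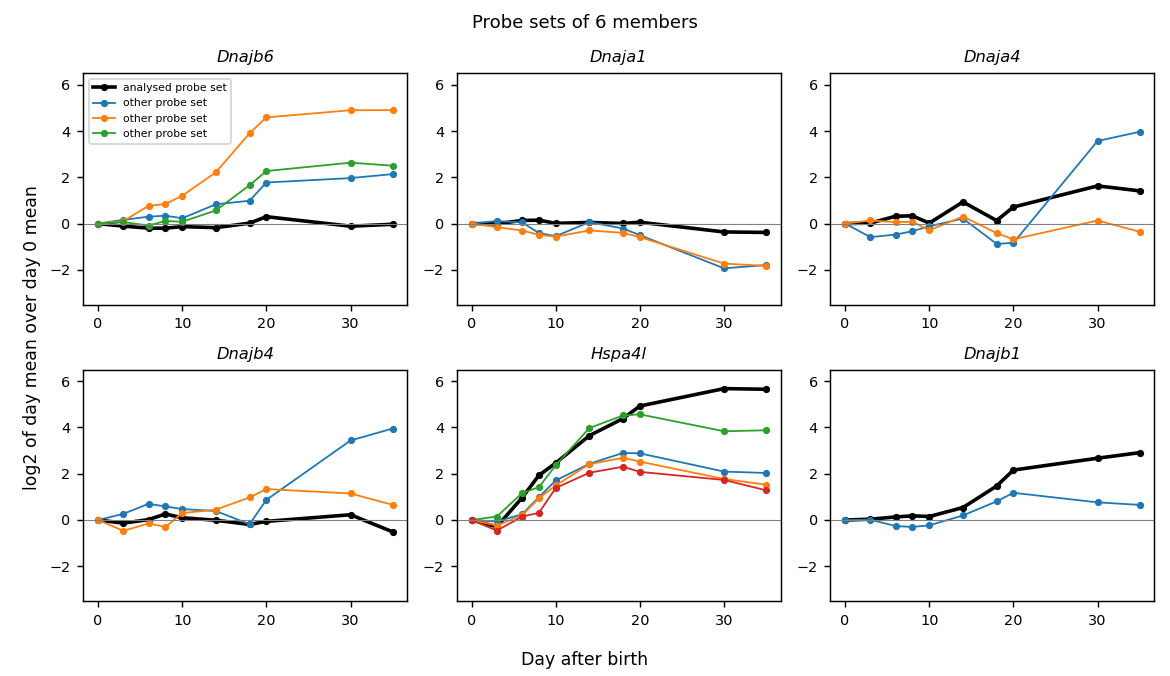
Log2 of the day mean over the day 0 mean, each with 7.83 added, by day after birth for all single-symbol probe sets of 6 members, the analysed one in black. For Dnajb6, Dnaja4 and Dnajb4 another probe set climbs while the analysed one changes less, for Dnaja1 the other 2 fall further, and for Hspa4l the 4 others turn down after day 20.

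The heat shock element core was searched in the RefSeq promoter windows of the 57 members that have one, of 70. GAANNTTC, which reads the same on both strands, was present for 14 of them (24.6%), beside 9.04% of the 27025 genes with a window. These were Dnaja1, Dnaja4, Dnajb6, Dnajc27, Dnajc5g, Hspa1a, Hspa1b, Hspb1, Hspb3, Hspb6, Hspb8, Hspd1, Hspe1 and Hsph1. The core followed after any 2 bases by GAA, searched on both strands, was present for Dnajb6, Hspd1, Hspe1 and Hsph1 (7.02%, beside 0.662% of genes). Among members lower on day 35 than on day 0, 6 of 13 with a window held the core, and among those higher, 4 of 18. The 6 were Hspa1a, Hspa1b, Hspb1, Hspb8, Hspd1 and Hspe1. Windows of Hspd1 and Hspe1 overlap and hold the same site, which is counted for both genes here and in the shares above. In the related genes Hspa1a and Hspa1b the match begins at the same place, 104 bases before the gene start. The 4 among those higher were Dnaja4, Dnajc27, Dnajc5g and Hspb6. No core was held by the other higher members with a window. These were Hspa2, Hspa4l, Hspa1l, Hspb9, Dnajb1, Dnajb2, Dnajb3, Dnajb5, Dnajb7, Dnajb8, Dnajb9, Dnajb13, Dnajc4 and Dnajc15. Nor was it held by the lower members Hspa12a, Hspa12b, Hspa14, Dnajc1, Dnajc13, Dnajc14 and Dnajc17.

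Other genes of the chaperone system were counted from lists drawn up with earlier results known, again beside 54.9% of all genes called on day 35 against day 0. Of 5 genes with a probe set that encode heat shock factors (Hsf2, Hsf4 and Hsf5) or their binding proteins (Hsf2bp and Hsbp1), 4 were higher on day 35 than on day 0 and none lower. Hsf5, a testis heat shock factor relative, gave 489 ± 106 on day 14, against 18.7 ± 2.93 on day 8 (log2 4.21, SE 0.20, adjusted p = 5.94e-12), the same days as the largest difference of Hspa2. The binding protein genes Hsf2bp and Hsbp1 were higher on day 35 than on day 0 by 2.54 and 1.84. Of 14 HSP70 exchange and hand-over factors, 4 were higher and 2 lower, with Bag5, an exchange factor, at 3086 ± 83.3 on day 35 against 226 ± 8.41 on day 0 (log2 3.72, SE 0.10, adjusted p = 2.77e-17), and Grpel2, the exchange factor of Hspa9, lower (log2 -1.55).

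Of 18 HSP90 co-chaperones, 1 was higher and 4 lower on day 35 than on day 0, led by Nudcd2 (log2 -3.00), Fkbp5 (-1.98) and Chordc1, at 117 ± 25.7 on day 35 against 471 ± 43.0 on day 0. Of 14 cytosolic chaperonin and prefoldin genes, 1 was higher and 2 lower. The chaperonin paralogs Cct6b and Cct6a moved in opposite directions, Cct6b at 1696 ± 87.8 on day 35 against 2.70 ± 2.17 on day 0 (log2 7.35) and Cct6a at 1444 ± 6.24 against 2951 ± 180 (log2 -1.03). Of 16 lectin chaperones and disulphide isomerases of the endoplasmic reticulum, 5 were higher and 6 lower. The testis forms Clgn, Calr3 and Pdilt were higher by 5.14, 4.64 and 4.31, and the collagen chaperone Serpinh1 was lower (log2 -4.12). Of 9 tested relatives outside the symbol rule, 2 were higher and 2 lower, among them the small heat shock relatives Odf1, of the sperm tail, higher by 8.72, and Cryab, lower (log2 -1.67).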

How the data were processed

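Intensity values per probe set were deposited by the authors on a linear scale, 1 column per array. The method that summarized them was not given in the sources used here. Per the labels, Trizol RNA received a biotin label in 1 round of 3' amplification. Symbols came from the platform annotation (34945 of 45101 probe sets with 1 symbol), and all 70 members matched RefSeq by Entrez identifier. Genes above the 40th percentile of the array on at least 2 arrays were tested. Values were taken as log2(intensity + 7.83), the pooled 20th percentile, with no further scaling. limma 3.58.1 in R 4.3.3 (lmFit, eBayes with trend) was fitted with day as a factor on all 20 arrays, with 10 residual and 8.88 prior degrees of freedom. Tests were two-sided, adjusted by Benjamini-Hochberg over 16429 genes in each comparison. Members were called at an adjusted p below 0.05 together with a 2-fold or larger difference. The 5 comparisons share arrays and are not independent.

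The members, lists, comparisons and tests were chosen with earlier results of these data known. Named are the 6 largest rises and falls called in each comparison, the 12 largest and 4 smallest ranges, a fixed set of known members and up to 4 called genes of each list. Other members were named after their values were seen. On simulated arrays for day 8 against day 0 (16429 genes), 40%, 74%, 96% and 100% of 50 genes given log2 differences of 1, 1.5, 2 and 3 were called, with 4 false calls. Across genes, same-day arrays correlated at 0.952 to 0.986 (log2). The number of arrays limits the precision. Alternatives were other scalings, constants, floors and filters, the mean of all probe sets, no trend, array weights, other thresholds, a replicate block, fits of only the days compared, and fits without each array. The time course within days 0 to 14 and within days 18 to 35 was added once the data had been seen (matplotlib 3.10.9 drew the plots).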

Additional observations from a re-analysis of the deposited data

How the results depend on the processing

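With the constant at the 40th percentile 1 member was called on day 8 against day 0, and with a floor at the pooled median 7 on day 14 against day 8. With no size limit 18, 30, 42 and 43 were called on day 8 against day 0, day 14 against day 8, day 20 against day 14 and day 35 against day 20. The time course test called 19 members within days 0 to 14 (24.4% of all genes) and 22 within days 18 to 35 (28.4%), where fewer arrays enter. Leaving out 1 array at a time gave 2 to 4, 9 to 11, 20 to 24, 9 to 11 and 36 to 38 calls in the 5 comparisons in their order and 48 to 51 over the time course.

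The sign changed for 2 members. Dnaja3 on day 35 against day 20 was 0.14 with the mean of all probe sets, and Dnajb6 on day 35 against day 0, -0.03 and not called, was 2.38 with that mean and -0.12 to 0.06 without 1 array. Among alternatives for single members, 2750 kept their direction and call, 61 lost the call, 32 gained it and 3 changed sign. A common median moved the median of all genes to -0.18 on day 20 against day 14 (0.01 without it) and to -0.15 on day 35 against day 0 (-0.03). Replicate numbers did not pair the samples: over 45 pairs of days the correlation of same-numbered deviations ran from -0.0249 to 0.0561. With replicate number as a block 4, 11, 21, 11 and 38 members were called in the 5 comparisons and 49 over the time course. Low intensities limit Hspb9, Dnajb13, Dnajb7, Dnajb8, Hspa1l, Dnajc6, Dnajc5b and Dnajc22 on early days and Hspa12b and Hspb8 on late days, where size depends on the constant.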
